A study of Mus musculus with 15 samples.

Results

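Intermediate filaments are rope-like polymers of the cytoplasm whose building blocks differ from one cell type to the next. In neurons the light, medium and heavy neurofilament subunits, encoded by Nefl, Nefm and Nefh, copolymerise with alpha-internexin (Ina) or peripherin (Prph), fill the axon and set its calibre. Neural precursors, radial glia and cells of vessel walls build filaments of nestin (Nes) and vimentin (Vim), and mature astrocytes add glial fibrillary acidic protein (Gfap). In the cerebellum, Purkinje cells, basket cell axons and the neurons of the deep nuclei are rich in neurofilament, Bergmann glia carry vimentin and glial fibrillary acidic protein, and nestin marks progenitors.

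These 8 genes were chosen by name, and their probes were found through the RefSeq transcript that the scanner files attach to each probe. The arrays measured 7 of them with 8 probes, 2 of which read Nefh, and Ina was not analysed here. Nefl, Nefm, Nefh, Nes, Vim and Gfap were well above background on at least 3 arrays and entered the tests, which ran over 21661 genes and unnamed transcripts. Prph did not enter.

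RNA of 12 medulloblastomas, which are tumours of the cerebellum, and of 3 normal cerebella had been labelled with Cy3 and hybridised to 1 mouse array per animal. All tumours arose in Ptch1+/- mice of the C3B6F1 strain, in which 1 germline copy of Ptch1, which encodes the inhibitory receptor of sonic hedgehog signalling, is defective in every cell; no tissue-specific driver is involved. The tumours carry the labels S-type or R-type, whose meaning is not stated. There were 3 S-type tumours of mice without X-rays (MB1 to MB3) and 3 of mice given 0.2 Gy (MB4 to MB6). There were 3 R-type tumours of mice given 0.2 Gy (MB7 to MB9) and 3 of mice given 1.5 Gy (MB10 to MB12). Irradiation was on postnatal day 1 and tumours were taken when the mice were moribund. The normal cerebella are NC1 to NC3 (n = 3), and the genotype and strain of these mice are not given. Age at sampling, for which no unit is given, was 128 to 173 for S-type and 87 to 127 for R-type tumours, so that type and age cannot be told apart, and 103 to 113 for normal cerebella. MB6 was the only male tumour mouse. Each array is 1 animal, and the number of arrays limits the precision.

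Values below are log2 processed signals minus the 75th percentile of the array, so that 0 is the level of the 75th percentile probe. Levels of single genes are compared between arrays for 1 probe, never between genes. The summed levels of marker lists add the unlogged levels of the listed genes, so bright genes weigh most in them. Changes are the first group minus the second, fitted with limma on all 15 arrays with 1 spread per gene, and adjusted p-values are Benjamini-Hochberg values over the 21661. Between 59.1 and 66.5% of probes were well above background on an array. The lowest signal well above background lay between −5.94 and −4.84, and a value in or below that range says little more than that the transcript was dim. Ptch1 itself was well above background on every array, at −2.08 to −1.46 in S-type tumours, −3.16 to −2.71 in R-type tumours and −3.33 to −3.03 in normal cerebella; the position of its probe within the gene is not given, so it does not check the deletion. Of the marker lists, 10 of 10 Purkinje cell genes, 10 of 10 mature granule neuron genes and 5 of 5 GABAergic interneuron genes fell in the tumours. Of 11 granule precursor genes 8 rose, 1 fell and 2 did not pass. Of all 21661 tested, 43.5% rose and 35.4% fell in the tumours.

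For the 3 glial and precursor filament genes the 120 bases before the RefSeq transcription start are given, since 2 of these genes rose in the tumours and 1 did not. The stretches come from RefSeq's GRCm38.p6 promoter table. Capitals mark matches, on either strand, of the 6 motifs that were searched.
Vim, chr2:13574191-13574310, + strand: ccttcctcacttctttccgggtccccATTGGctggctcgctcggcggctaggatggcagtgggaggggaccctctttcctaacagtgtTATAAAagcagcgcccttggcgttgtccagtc
Nes, chr3:87970973-87971092, + strand: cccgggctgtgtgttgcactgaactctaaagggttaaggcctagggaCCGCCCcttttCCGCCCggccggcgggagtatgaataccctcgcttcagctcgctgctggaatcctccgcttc
Gfap, chr11:102897201-102897320, − strand: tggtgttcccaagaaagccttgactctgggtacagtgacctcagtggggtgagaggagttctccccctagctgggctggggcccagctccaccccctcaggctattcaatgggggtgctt
The search covered the 250 bases before the start, and its background was 32851 promoters. The TATA box was searched as TATAAA and occurred in 12.4% of all promoters. The CCAAT box occurred in 33.8%. The GC box was searched as GGGCGG and occurred in 32.7%. The STAT site was searched as TTCNNNGAA and occurred in 7.0%. The core of the cAMP response element was searched as TGACG and occurred in 17.8%. The E-box was searched as CAGCTG and occurred in 13% of the promoters. None of these motifs overlapped another in the stretches shown. Vim held a TATA box 32 to 27 bases before the start and 2 CCAAT boxes, of which the one 94 to 90 bases before the start is in the stretch shown. Nes held 2 GC boxes. Gfap held none of the 6. The table matched 5 of the 8 genes: Vim, Nes, Gfap, Prph and Ina.

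The first comparison asked how filament transcripts of the tumours differ from those of the organ. In the tumours all 3 neurofilament genes fell: Nefm fell by 6.44 on the log2 scale and Nefl and Nefh by more. Nes rose 16.4-fold, Vim rose 1.51-fold, and Gfap did not pass the test. Thus 2 of the 6 tested genes rose and 3 fell. Of all 21661, 43.5% rose and 35.4% fell, so a call in this comparison was the rule and the sizes and the values by animal carry the description.

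**Figure D1:**
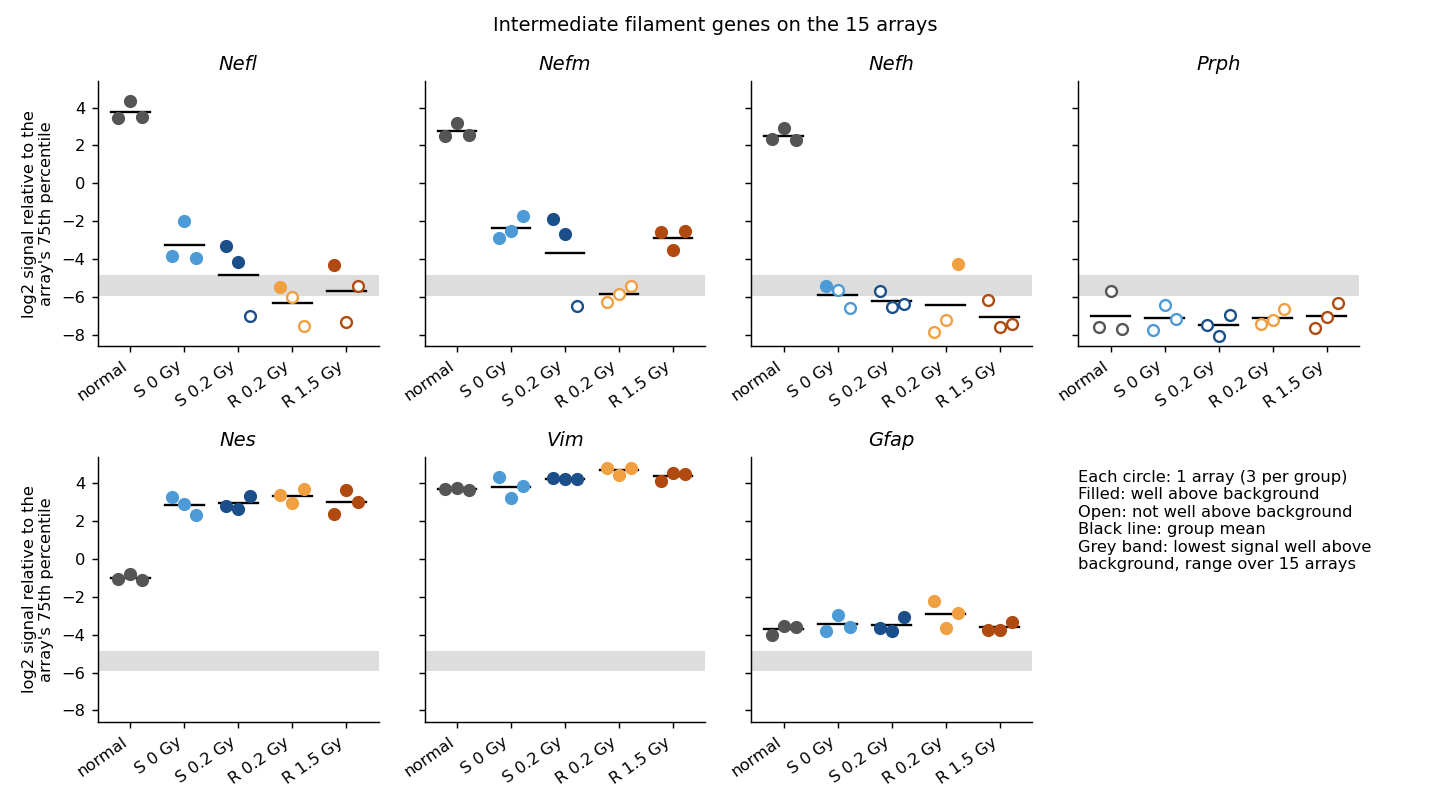
The log2 signal relative to the array's 75th percentile is plotted for the 7 measured genes, with 1 circle per array (3 per group), filled where the probe was well above background and open where it was not; black lines are group means and the grey band spans the lowest signal well above background on the 15 arrays (−5.94 to −4.84). The neurofilament genes are at 2.26 or higher in the normal cerebella and at −1.71 or lower in the tumours, Nes runs the opposite way, and Prph has open circles throughout.

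Nefl encodes the light subunit, on which the other 2 depend for assembly. It was at 3.45, 4.35 and 3.51 in the normal cerebella. In S-type tumours it was at −3.84, −1.99 and −3.94 without X-rays and at −3.33, −4.16 and −7.02 after 0.2 Gy. In R-type tumours it was at −5.50, −6.0 and −7.54 after 0.2 Gy and at −4.34, −7.31 and −5.40 after 1.5 Gy. Every tumour lay below every normal cerebellum, and MB6, MB8, MB9, MB11 and MB12 were not well above background. Nefl fell by 8.80 on the log2 scale (SE 0.783, adjusted p = 4.45e-07), a size that rests in part on those 5 dim signals. Against normal cerebellum it fell by 7.02 in S-type tumours without X-rays, the 1 group with every array well above background, which is 130-fold (SE 0.99, adjusted p = 3.87e-05).

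Nefm encodes the medium subunit, whose long tail projects sideways from the filament. Its gene neighbours Nefl on chromosome 14, with 1 other gene of the RefSeq table, which is not protein-coding, between them. Its probe was spotted 10 times on each array, which gives it a firmer value than a single spot. It was at 2.48, 3.20 and 2.53 in the normal cerebella. In S-type tumours it was at −2.91, −2.52 and −1.71 without X-rays and at −1.89, −2.69 and −6.48 after 0.2 Gy. In R-type tumours it was at −6.28, −5.86 and −5.45 after 0.2 Gy and at −2.58, −3.51 and −2.53 after 1.5 Gy. The tumours thus lay on 2 levels: 8 between −3.51 and −1.71, and MB6, MB7, MB8 and MB9 at −5.45 or below and not well above background. Nefm fell by 6.44 in the tumours as a whole (SE 0.708, adjusted p = 3.2e-06). In R-type tumours at 0.2 Gy, where no array was well above background, it was at least 266-fold lower than in normal cerebellum (fitted change −8.6, adjusted p = 2.57e-06). Such bounds set each dim array to the lowest signal well above background on it.

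**Figure D2:**
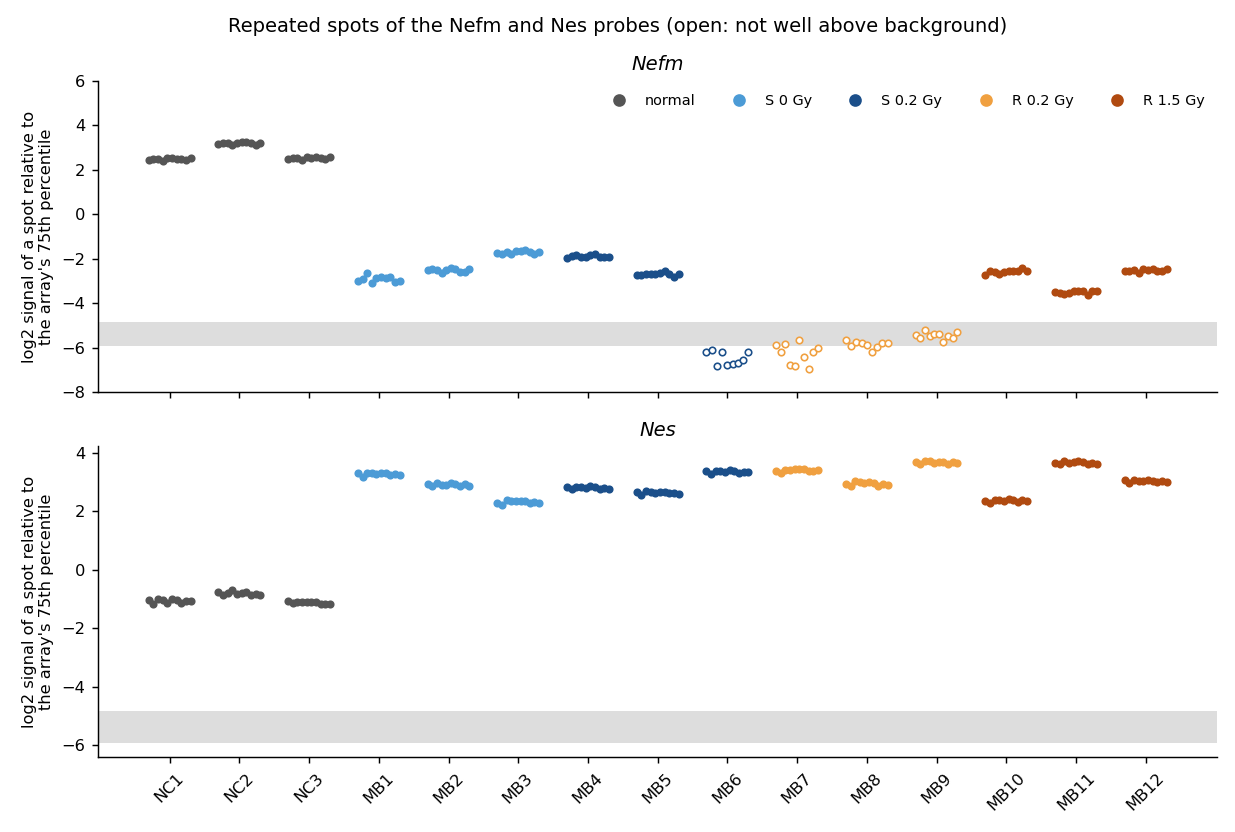
Single spots of the probes of Nefm (upper panel) and Nes (lower panel) are plotted by array as log2 signal relative to the array's 75th percentile, filled where the probe was well above background, with the same grey band as in the plot by group. The Nefm spots of MB6 to MB9 sit in or below the band and apart from those of the other 8 tumours, while the Nes spots of all 12 tumours lie above those of the normal cerebella.

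All 10 Nefm spots were well above background on each of the 3 normal and 8 tumour arrays, and none on MB6, MB7, MB8 or MB9 (9 usable spots on MB6 and MB8, 10 on the other two). The SD between the spots of an array was 0.037 to 0.122 where they were well above background and 0.15 to 0.449 where they were not. This SD covers repeat spots of 1 array, not the spread between tumours. Set to the lowest signal well above background on their own arrays, the 4 dim tumours lay at −5.57 to −4.84, below the −3.51 of MB11, the lowest of the other 8.

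Nefh encodes the heavy subunit, the last to be added as axons mature. Its brighter probe was at 2.34, 2.92 and 2.26 in the normal cerebella. In S-type tumours it was at −5.42, −5.65 and −6.59 without X-rays and at −5.70, −6.54 and −6.37 after 0.2 Gy. In R-type tumours it was at −7.86, −7.20 and −4.25 after 0.2 Gy and at −6.18, −7.59 and −7.41 after 1.5 Gy. Only MB1 and MB9 were well above background, and MB9 had the highest value of any tumour. Nefh fell by 8.90 (SE 0.599, adjusted p = 3.28e-08), and it was at least 241-fold lower in S-type tumours at 0.2 Gy and at least 221-fold lower in R-type tumours at 1.5 Gy, where no array was well above background. The dimmer Nefh probe read −0.42, 0.29 and −0.45 in the normal cerebella and was not well above background in any of the 12 tumours, including MB1 and MB9, which makes it at least 35.8-fold lower there. Both probes thus gave the same direction, and the signal of MB9 was seen with 1 of them.

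Prph, the subunit typical of peripheral and some brainstem neurons, was not well above background on any array, with values from −8.09 to −5.71, and gives no comparison.

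The fall of the 3 neurofilament genes was also seen on each of the 3 slides that held tumours and a normal cerebellum. The tumours' mean minus the normal value was −10.10 to −7.90 for Nefl, −6.89 to −6.09 for Nefm and −10.05 to −8.41 for Nefh over these slides. The summed level of the 10 Purkinje cell genes, in units of the 75th percentile, was 372 to 399 in the normal cerebella and 5.96 to 10.4 in the tumours. That of the interneuron genes was 106 to 116 against 0.188 to 0.91, and that of the mature granule neuron genes 284 to 317 against 32.5 to 53.4. In bulk tissue fewer cells of a type and less RNA per cell cannot be told apart, and the part of these cells in the fall of the neurofilament genes was not tested. Not all neuronal lists fell: of 5 tested markers of cerebellar nuclei and brainstem neurons 4 rose, against 43.5% of all tested. The summed level of the 10 such markers on the arrays was 0.534 to 6.08 in the normal cerebella and 9.89 to 32.5 in the tumours.

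Nes encodes nestin, the filament protein of dividing neural precursors. Its probe, also spotted 10 times, was at −1.07, −0.81 and −1.12 in the normal cerebella. In S-type tumours it was at 3.27, 2.91 and 2.32 without X-rays and at 2.80, 2.64 and 3.35 after 0.2 Gy. In R-type tumours it was at 3.40, 2.95 and 3.67 after 0.2 Gy and at 2.36, 3.66 and 3.03 after 1.5 Gy. Every tumour lay above every normal cerebellum, and the tumours spanned only 2.32 to 3.67. Nes rose by 4.03 (95% interval 3.45 to 4.61, SE 0.264, adjusted p = 2.56e-08), and by 3.83 to 4.34 in the 4 tumour groups taken singly.

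Vim encodes vimentin, which pairs with nestin in precursors and is also made by vessel wall cells, fibroblasts and macrophages. It was at 3.67, 3.73 and 3.66 in the normal cerebella. In S-type tumours it was at 4.33, 3.21 and 3.88 without X-rays and at 4.26, 4.21 and 4.22 after 0.2 Gy. In R-type tumours it was at 4.81, 4.45 and 4.82 after 0.2 Gy and at 4.13, 4.53 and 4.47 after 1.5 Gy. All tumours but MB2 lay above the normal cerebella, and MB2 lay below them. Vim rose by 0.59 (95% interval 0.21 to 0.97, SE 0.175, adjusted p = 0.00808).

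By group, the change of Vim against normal cerebellum was 0.12 in S-type tumours without X-rays (95% interval −0.37 to 0.61, adjusted p = 0.639), and 0.42 with an adjusted p of 0.0359 when MB2 was left out. It was 0.54 in S-type tumours at 0.2 Gy (adjusted p = 0.0426), 1.01 in R-type tumours at 0.2 Gy (adjusted p = 0.00128) and 0.69 in R-type tumours at 1.5 Gy (adjusted p = 0.0134). The call at R-type 0.2 Gy stood under all 25 alternatives, with an adjusted p of at most 0.00634. The call at S-type 0.2 Gy was lost when any array of the normal cerebella or of that group was left out (adjusted p = 0.0725 to 0.0895) or when MB3, MB7, MB9 or MB12 was (adjusted p = 0.0509 to 0.052). It was also lost with slide as a block (0.46, adjusted p = 0.0688), under quantile normalisation (0.42, adjusted p = 0.0947) and without a filter on dim probes (adjusted p = 0.0644). The call at R-type 1.5 Gy was lost under quantile normalisation and without scaling (adjusted p = 0.0556 and 0.0689).

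Markers of other cells that make vimentin are given beside a share of 43.5% of all tested that rose and 35.4% that fell. Of the pericyte and fibroblast genes 6 of 10 rose and none fell, with a summed level of 13 to 20.1 in the normal cerebella and 22.9 to 45.4 in the tumours. Of the microglia and macrophage genes 8 of 9 rose, from 3.24 to 4.34 up to 18.9 to 35.3. Of the endothelial genes 5 of 10 rose and 3 fell, close to those shares, and their summed level in the tumours, 9.45 to 19.6 with the lowest in MB2, spanned the 13.9 to 15.9 of the normal cerebella. The part of these cells in the rise of Vim was not tested.

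Gfap encodes the astrocyte filament protein and was dim on all arrays, though well above background on each. It was at −4.03, −3.55 and −3.59 in the normal cerebella. In S-type tumours it was at −3.81, −2.98 and −3.57 without X-rays and at −3.67, −3.79 and −3.04 after 0.2 Gy. In R-type tumours it was at −2.20, −3.64 and −2.84 after 0.2 Gy and at −3.76, −3.75 and −3.33 after 1.5 Gy. Tumours and normal cerebella overlapped, and the change was 0.36 (95% interval −0.23 to 0.95, adjusted p = 0.238). Where the probe lies in the Gfap transcript is not given, so it is not known which of the gene's isoforms it reads.

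In R-type tumours at 0.2 Gy Gfap rose by 0.83 (SE 0.341, adjusted p = 0.0429), with MB7 and MB9 above the normal cerebella and MB8 among them. Without MB7 the change was 0.49 with an adjusted p of 0.195, and 13 of 25 alternatives in all ended the call, among them the loss of MB3, MB4, MB9, MB10, MB11 or any normal cerebellum (adjusted p = 0.0519 to 0.137). In the other 3 groups the change was 0.11 to 0.27 and did not pass. Of the 13 astrocyte and Bergmann glia genes 11 fell in the tumours, against 35.4% of all tested. Among them were Gja1 (−4.24), a gap junction protein, and Aldoc (−6.29), an aldolase. Only 1 rose, Sox9 (1.95), a transcription factor of glia and progenitors, against 43.5% of all tested. Fabp7 did not pass (0.72, adjusted p = 0.13). The summed level of the 13 genes was 308 to 342 in the normal cerebella and 39.9 to 90.1 in the tumours. The highest values were in MB7 (90.1), MB6 (83.6) and MB9 (60.2). Gfap was at −2.20, −3.04 and −2.84 in these 3 tumours, and the only other tumour with a value above the −3.33 of MB12 was MB2, at −2.98. The part of astrocytes in the Gfap values was not tested.

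By tumour group, 4 of the 6 tested genes had changed against normal cerebellum in S-type tumours without X-rays, where 74.2% of all tested had, and 5 in S-type tumours at 0.2 Gy (73.9%). All 6 had changed in R-type tumours at 0.2 Gy (74.1%) and 5 in R-type tumours at 1.5 Gy (74.6%). The 3 neurofilament genes and Nes were called in each of the 4 groups. These 4 comparisons share the 3 normal cerebella. The higher genes made up 55.1% of all calls in R-type tumours at 0.2 Gy and 55.2% at 1.5 Gy, against 44.6% and 44.0% without scaling between arrays, and no direction of a called member turned.

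**Figure D3:**
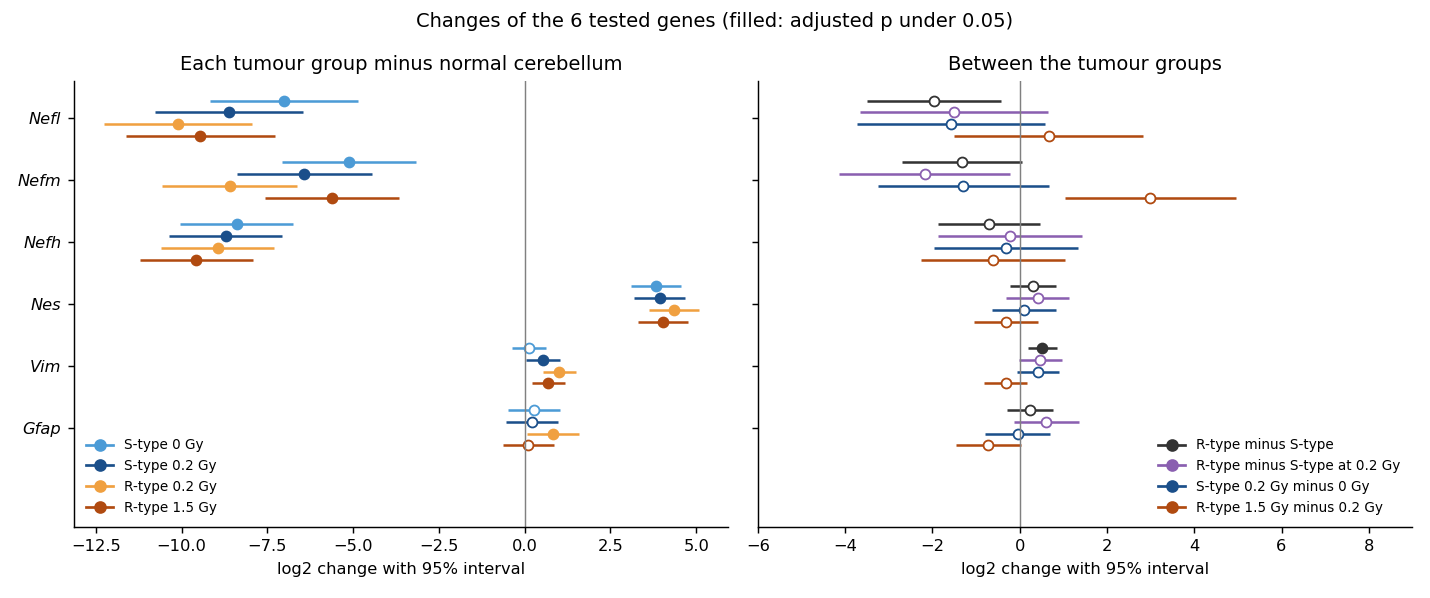
The log2 change of the 6 tested genes with its 95% interval is plotted for each tumour group against normal cerebellum (left) and between tumour groups (right), filled where the adjusted p was under 0.05. On the left the neurofilament genes lie between −10.11 and −5.12 and Nes between 3.83 and 4.34 in every group, and on the right Vim between the types is the only filled point.

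The second comparison set R-type against S-type tumours. Vim was higher in R-type tumours by 0.52 (95% interval 0.18 to 0.86, SE 0.157, adjusted p = 0.0361), which is 1.43-fold, and the other 5 genes did not pass. Of all 21661, 10.9% were higher and 10.1% lower in R-type tumours; the higher ones made up 51.9% of the calls, against 9.0% without scaling between arrays and 68.0% with normexp background correction, and Vim was higher under each. Vim ran from 3.21 to 4.33 with a median of 4.21 in the 6 S-type tumours and from 4.13 to 4.82 with a median of 4.50 in the 6 R-type tumours, and the types overlapped. Within the 4 slides, each of which held both types, R minus S was 0.39 to 0.61, and the change was 0.51 with slide as a block (adjusted p = 0.0411). The call was close to the threshold: its adjusted p ran from 0.00656 to 0.0968 over 25 alternatives, and 13 of them, among them the loss of MB4, MB5, MB6, MB7, MB9, MB11, MB12 or NC1, ended it.

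The neurofilament genes had the lower means in R-type tumours but did not pass. The change of Nefl was −1.97 (95% interval −3.50 to −0.44, adjusted p = 0.0664), with 5 of 6 S-type and 2 of 6 R-type arrays well above background. Without MB6 its change was −2.51 with an adjusted p of 0.0176, and without MB10 it was −2.30 with an adjusted p of 0.0481. Without scaling between arrays it was −2.19 with an adjusted p of 0.0372, while Vim was at 0.30 with an adjusted p of 0.0968. The change of Nefm was −1.33 (95% interval −2.71 to 0.05, adjusted p = 0.155), and −2.03 with an adjusted p of 0.00167 without MB6. The change of Nefh was −0.71 (95% interval −1.88 to 0.46, adjusted p = 0.371), and −1.25 with an adjusted p of 0.0261 without MB9. In the other 24 of 25 alternatives neither gene's own call arose, with an adjusted p of up to 0.305 for Nefm and 0.656 for Nefh. The change of Nes was 0.30 (95% interval −0.22 to 0.82) and that of Gfap 0.23 (95% interval −0.30 to 0.76), both not passing. A difference of up to about the size of these bounds is thus not shown to be absent.

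At the dose that both types share, 0.2 Gy, none of the 6 genes passed, against 4.77% of all tested; 1 of the 6, Nefm, had an unadjusted 95% interval that left out 0. Nefm was at −1.89, −2.69 and −6.48 in the S-type tumours and was not well above background in any R-type tumour. By the group means it was 3.1-fold lower in R-type tumours, with these set to the lowest signal well above background and MB6 as read. Since MB6 was itself dim, this is not a bound. Against MB4 and MB5 alone, Nefm was at least 8.16-fold lower in R-type tumours. The fitted change, which uses the dim values as read, was −2.18 (95% interval −4.14 to −0.22, adjusted p = 0.181), and −3.57 with an adjusted p of 0.00266 without MB6. The other 24 of 25 alternatives gave no call for Nefm here, with an adjusted p of up to 0.432. At this dose Vim was at 4.21 to 4.26 in S-type and 4.45 to 4.82 in R-type tumours. Its change of 0.47 did not pass (95% interval −0.02 to 0.96, adjusted p = 0.247).

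The dose comparisons within a type gave no call among the 6 genes. In them dose and age at sampling cannot be told apart. In S-type tumours age was 160 to 173 without X-rays and 128 to 135 at 0.2 Gy. In R-type tumours it was 106 to 127 at 0.2 Gy and 87 to 103 at 1.5 Gy. In S-type tumours, 0.2 Gy against no X-rays, 0.00462% of all tested were called, and the changes of the members were −1.58 for Nefl, −1.30 for Nefm, −0.32 for Nefh, 0.10 for Nes, 0.42 for Vim and −0.05 for Gfap, all with 95% intervals that held 0. In R-type tumours, 1.5 against 0.2 Gy, 0.0692% of all tested were called, and the 95% interval of 1 of the 6 genes, Nefm, left out 0. There Nefm was at −3.51 to −2.53 at 1.5 Gy and not well above background at 0.2 Gy. By the group means its level was at least 5.47-fold higher at 1.5 Gy. The fitted change was 2.99 (95% interval 1.03 to 4.95, SE 0.895) with an adjusted p of 0.59. It stayed at 2.99 with an adjusted p of 0.0171 when MB6 was left out. MB6 is an S-type array that enters this comparison only through the shared spread, which its low Nefm value widens. The other 24 of 25 alternatives gave no call, with an adjusted p of up to 0.999. The summed Purkinje cell level was 6.59 to 8.4 in R-type tumours at 0.2 Gy and 6.91 to 7.22 at 1.5 Gy, and 5.96 in MB6, and the number of these 10 genes well above background was 9 on each array at 0.2 Gy and 6 to 10 at 1.5 Gy. The other neurofilament genes gave no such gap between the doses, with a change of 0.66 for Nefl (95% interval −1.50 to 2.82) and −0.62 for Nefh (95% interval −2.27 to 1.03).

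Among the 12 tumours, the genes whose deviations from the 4 group means ran most closely with those of a member were ranked over 11459 genes well above background in every tumour. For Nes they were Crtc2 (r = 0.959), Frmd8 (r = 0.956) and Tcirg1 (r = 0.943). For Vim they were Rexo5 (r = 0.97), Noc2l (r = 0.966) and Dbt (r = 0.949). For Gfap they were Tmem150a (r = 0.981), Mmd2 (r = 0.968) and Plekhf1 (r = 0.96). These are the highest of 11459 values over 12 arrays that share scaling and slides, and they are given as a description.

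The other genes of the filament system were described by counts beside the median change of all tested genes, 0.14 in tumours against normal cerebella. Of all tested, 43.5% rose and 35.4% fell. No list median below moves when genes that have only a bound are set to it, since each stays on its side of the median. Of 15 other cytoplasmic filament genes 11 were tested: 5 rose, 5 fell and 1 did not pass, with a median of 0.18. Krt10, a keratin of differentiating epidermis, was at −4.45 ± 0.12 (SD) in the 3 normal cerebella and at 3.6 ± 0.82 (SD) in the 12 tumours, and so rose by 8.05 (SE 0.425, adjusted p = 3.67e-09). Krt8, the keratin of simple epithelia, fell by 6.16 (adjusted p = 2.58e-06), with 2 of 12 tumours well above background; its other probe, dim on most arrays, differed by 0.17. Synm, which encodes the vimentin and desmin partner synemin, fell by 1.66 (adjusted p = 1.88e-06), and Krt17 fell by 1.25 (adjusted p = 7.28e-06).

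The nuclear lamins are the intermediate filaments of the nucleus. Of 8 lamin and lamina genes 7 rose and 1 fell, against 43.5% and 35.4% of all tested, with a median of 1.71. Lmnb1, a B-type lamin, was at 0.49 ± 0.11 (SD) in the 3 normal cerebella and at 5.44 ± 0.13 (SD) in the 12 tumours, and so rose by 4.95 (SE 0.078, adjusted p = 1.41e-13). Lbr, the lamin B receptor of the inner nuclear membrane, rose by 2.67, Tmpo, which encodes the lamina-associated polypeptides LAP2, by 2.36 and Banf1, a chromatin bridging protein, by 1.81. Lmna, the A-type lamin gene, was the one that fell, by 0.42 (adjusted p = 0.00281).

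**Figure D4:**
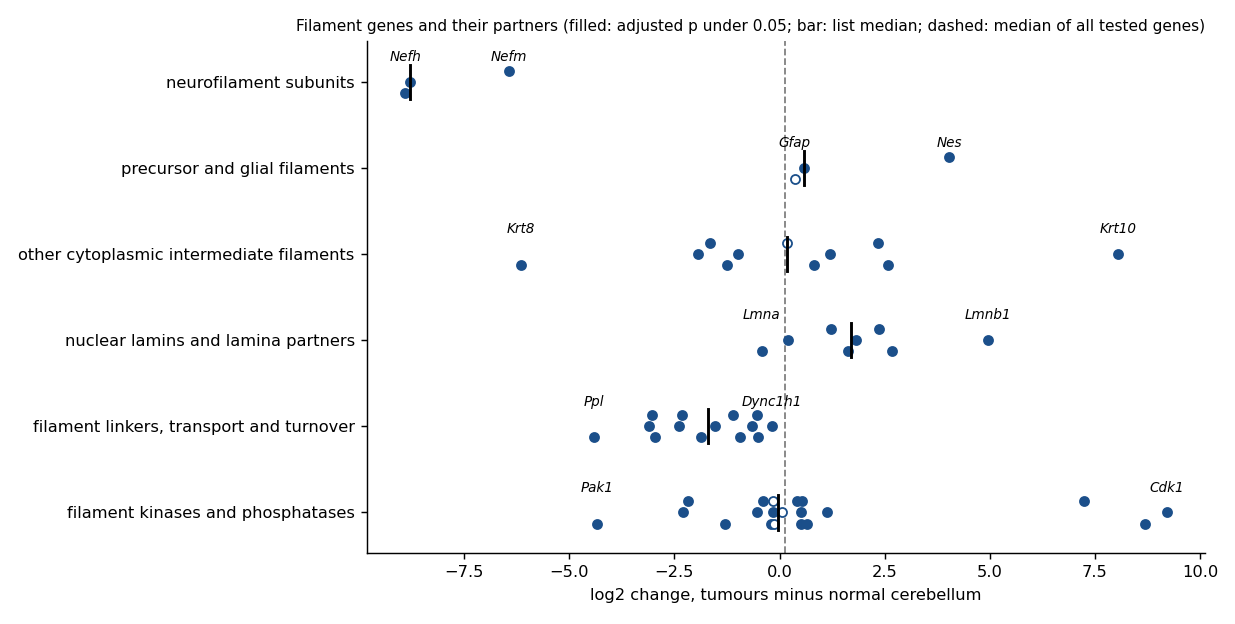
Each point is the log2 change of 1 tested gene, tumours minus normal cerebellum, filled where the adjusted p was under 0.05, with a black bar at the median of each list and a dashed line at the median of all tested genes (0.14). Linker and transport genes lie left of the dashed line and lamin genes mostly right of it, while Krt10 and Krt8 stand far apart from the other cytoplasmic filament genes.

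Of 16 genes for filament linkers, transport and turnover 14 were tested. All 14 fell, against 35.4% of all tested, with a median of −1.70. Plec, the giant linker that ties filaments to other structures, fell by 3.10 (adjusted p = 4.43e-09) and Fam83h, which recruits a kinase to keratin, by 3.03 (adjusted p = 4.52e-09). Ppl, the desmosomal linker periplakin, was at least 7.18-fold lower and not well above background in any tumour. Kif5a, the neuronal kinesin heavy chain that carries neurofilaments along the axon, fell by 2.40 (adjusted p = 1.42e-07).

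Of 20 kinases and phosphatases that act on filaments 9 rose, 8 fell and 3 did not pass, with a median of −0.04. These counts are close to the 43.5% of all tested that rose and the 35.4% that fell. The 3 mitotic kinases that phosphorylate vimentin in dividing cells rose. Cdk1, by its brighter probe, was at least 289-fold and Aurkb at least 109-fold higher, both not well above background in the normal cerebella. The other Cdk1 probe, well above background on all 12 tumour arrays and on no normal array, differed by only 3.48. Plk1 rose by 7.23 (adjusted p = 5.85e-13). Mapk10, a JNK of neurons, one of the kinases of neurofilament tails, fell by 2.29 (adjusted p = 2.38e-09).

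Between the tumour types 11 of these 53 genes were called, or 20.8%, against 21.0% of all tested. Krt20, a keratin of gut lining, was lower in R-type tumours with a change of −1.21 (adjusted p = 0.0169), and in these 3 of 6 arrays were well above background against 6 of 6 in S-type tumours; with normexp background correction the adjusted p was 0.0956. Lbr was higher by 0.48 (adjusted p = 0.00127) and Hspb1, a small heat shock protein that binds filaments, by 0.84 (adjusted p = 0.0129). Lower in R-type tumours were Plec (−0.62, adjusted p = 0.0141) and Pak1, a kinase that phosphorylates vimentin (−0.85, adjusted p = 0.0176). The other 6 were Gsk3b, Mapk3, Mapk9 and Rock1, which were lower, and the phosphatase genes Ppp2r2a and Ppp1ca, which were higher, with changes between −0.41 and 0.22. Mapk9 was lower only by the probe used. Its other probes, well above background on 6 of 6 arrays of each type, were higher in R-type tumours, by 0.43 and 0.5. The direction of Mapk9 thus turned with the mean of its probes, and that of Ppp2r2a turned without scaling between arrays.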

How the data were processed

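One-colour Agilent arrays of 15 samples were analysed. The deposited scanner files hold linear spot intensities that the authors had background-subtracted but not scaled between arrays, per the file headers. Per the submitters' processing notes, Agilent Feature Extraction was at version 9.5.1. The deposited series table holds log2 values. Array-to-array differences in it correlated at 0.99987 to 0.99999 with those of the scaled scanner values, and its MB1 and MB2 columns summed to 0 at every probe (to within 1e-06), so each probe appears centred on the mean of these 2 arrays; the scale before that step is unknown. Its column medians were 0.00242, 0.082 and 0.0892 for NC1 to NC3 and 0.0506, −0.0506, 0.106, 0.0682, −0.0795, 0.0525, 0.0703, 0.13, 0.127, 0.0908, 0.152 and 0.099 for MB1 to MB12. All its columns were used, as an alternative input.

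From the log2 processed signal of an array its 75th percentile was taken away; in linear units this was 1183.9 to 1611.1. Flagged spots were left out, spots of a probe were averaged and 76 of 41174 probes were lost. Probes were named through RefSeq transcripts (24792 probes, 17154 symbols), the probe with the highest mean stood for a gene, and a gene entered the tests if well above background on 3 or more arrays. limma 3.58.1 in R 4.3.3 fitted 5 group means (10 residual degrees of freedom, 1.71 prior; two-sided, Benjamini-Hochberg at 0.05 over all tested), and was tested on simulated data. Tables and figures used Python 3.11.15, pandas 2.3.3, numpy 2.4.6 and matplotlib 3.10.9. Alternatives were normexp on median signals (offset 50), quantile or no scaling, 2 other filters, the mean of a gene's probes, slide or replicate as a block, only the groups compared, the series table, and each array left out. 

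The members and gene lists were chosen with earlier results of these data known. Named were the 8 members, up to 4 genes per list with the smallest adjusted p in tumours against normal cerebella, every list gene called between the types, the 3 genes most like each member measured in all tumours, and Ptch1; genes beyond this rule were named after their values were seen. Of the listed genes, 2 are not reported here and were left out of the lists' counts. The gene and promoter tables rest on another assembly than the array annotation, so no gene coordinates are given except for the promoters. Tumour numbers follow accession order and pair nothing. Labels do not say whether arrays of a group came from separate litters.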

Additional observations from a re-analysis of the deposited data

Results flagged for a closer look

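Nefm in MB6 stood apart from the other 5 S-type tumours: its value of −6.48 lay 0.748 of the group's whole range away from its nearest neighbour, above the 95% critical value of Dixon's test for 6 samples. That value was not well above background, and with MB6 at −4.84, the lowest signal well above background on its array, the ratio was 0.616, below the critical value, an alternative chosen after seeing the data. Of 12 groups of 6 examined in this way it was the 1 that stood out. Chance gives about 1 in 20 for each group, so 1 among 12 is not unusual. MB6 was the only male among the tumour mice. It had the lowest summed Purkinje cell level (5.96) and the next to highest astrocyte level (83.6) of the tumours. On its array 59.1% of probes were well above background. The share was also 59.1% on MB3, where Nefm, at −1.71, was the highest of the tumours. None of these was tested as a cause.

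The following genes differed between R-type and S-type tumours by limma, given as R minus S on the log2 scale. Vim was at 0.52. Among filament partners Krt20 was at −1.21, Lbr at 0.48, Plec at −0.62 and Hspb1 at 0.84. Among kinases and phosphatases Gsk3b was at −0.22, Mapk3 at −0.41, Mapk9 at −0.35, Rock1 at −0.17, Pak1 at −0.85, Ppp2r2a at 0.19 and Ppp1ca at 0.22. The other Mapk9 probes went the opposite way, at 0.43 and 0.5. Among markers of mature neurons the Purkinje gene Ppp1r17 was at −2.01, the granule neuron genes Cbln1 and Snap25 at 0.47 and −0.80 and the choline transporter gene Slc5a7 at −2.49. Among glial and immune markers Gja1 was at 0.84, Sox9 at 0.38, Mal at 0.54 and Cx3cr1 at −0.45. Among granule precursor genes Pax6 was at 1.1, Barhl1 at −0.51 and Zic2 at −0.28. Of all 21661 tested, 21.0% were called between the types. Markers tested numbered 10 for Purkinje cells, 10 for granule neurons, 5 for interneurons and 5 for nuclei and brainstem neurons. They numbered 13 for astrocytes, 9 for oligodendrocytes, 9 for microglia, 10 for endothelium, 10 for pericytes and 11 for granule precursors. No interneuron, endothelial or pericyte marker was called. Of the 22 list genes called, 9 kept the call under every alternative: Barhl1, Cx3cr1, Hspb1, Lbr, Mapk3, Pak1, Pax6, Plec and Slc5a7. The calls of Krt20, Gsk3b, Ppp2r2a, Cbln1 and Sox9 were lost only under other scaling, background, probe or slide settings, and that of Ppp1ca also without MB9. The calls of Rock1, Snap25, Mapk9, Mal, Gja1, Zic2 and Ppp1r17 were also lost when 1 of several arrays was left out, and over all alternatives their highest adjusted p was 0.112, 0.0952, 0.106, 0.124, 0.0716, 0.0715 and 0.0659.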

How the results depend on the processing

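Changes were computed under 25 alternatives. Of 64 changes of named genes between tumours and normal cerebella, 63 kept their direction and their side of the threshold in every one; Fabp7, at 0.72, passed with a replicate block (adjusted p = 0.03). For R-type against S-type tumours the number of members called was 1, and it was 0 with quantile normalisation, without a filter on dim probes, with a replicate block and with only the groups of the comparison. Without scaling the 1 was Nefl in place of Vim, and without MB9 it was Nefh. Leaving out 1 array gave 0 to 2 there, 0 to 1 for the types at 0.2 Gy and 0 to 1 for 1.5 against 0.2 Gy in R-type tumours, where the 1 was Nefm without MB6 in both. The replicate block changed, among members, only that call and those of Vim at S-type 0.2 Gy (adjusted p = 0.05) and Gfap at R-type 0.2 Gy (adjusted p = 0.0567) against normal cerebellum. Between the types Mapk9 reversed to 0.19 with the mean of its probes. Its other probes differed by 0.43 and 0.5, against −0.35 for the probe used, so its direction depended on the probe. Ppp2r2a reversed to −0.035 without scaling (adjusted p = 0.758). The median change of all tested genes was −0.20 there, against 0.02 with scaling. The cause of the Ppp2r2a reversal was not tested.

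The 4543 calls over all genes between the types became 6382 without scaling and 3044 without MB9. The 1033 calls at 0.2 Gy became 2673 without scaling, 541 without the filter, 454 with slide as a block, 610 with a replicate block, 456 with only the groups compared and 295 without MB9. The 15 calls between doses in R-type tumours became 0 with only the groups compared and 159 without MB8, and the 1 between doses in S-type tumours became 17 without MB1. The median change of all genes in R-type against S-type tumours was 0.02, and −0.20 without scaling. Signals near background limit Nefl, Nefh and, in 4 tumours, Nefm.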
